A study of Mus musculus with 36 samples.

Results

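The genes Aldh1a1, Plet1, Krt80, Mal2, Prss22 and Nrip3, taken as genes of the early cyst epithelium, were followed across both mouse models and every age. They are 6 of the 20458 gene symbols in the count table, and they were chosen by measured values of these libraries, namely by higher counts in KO than in WT kidneys. Their KO against WT differences are therefore a description with no test. In the Pkd2 model all 6 genes had higher means in KO than in WT kidneys at P1, P3 and P7. In the Pkd1 model 5 of the 6 had lower means in KO kidneys at P1, and all 6 had higher means at P7, so that higher levels from P1 onward were seen in only 1 of the 2 models. Whether cyst epithelium holds the transcripts cannot be checked in RNA of whole kidneys.

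Polycystic kidney disease arises when polycystin 1 or polycystin 2, the products of Pkd1 and Pkd2, are lost from tubule cells. Tubules then widen into cysts lined by a single layer of epithelium. The 6 genes have separate roles in epithelia. Aldh1a1 encodes a retinal dehydrogenase that makes retinoic acid, and Plet1 a GPI-anchored surface protein of epithelial progenitors. Krt80 encodes a type II keratin of the intermediate filaments, and Mal2 a MARVEL-domain membrane protein needed to carry cargo to the apical surface. Prss22 encodes a serine protease of the tryptase family. Nrip3 encodes a little-studied protein related to retroviral-like aspartic proteases.

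Kidney RNA of C57BL/6 mice was sequenced in 12 groups of 3 libraries. KO mice were Pkd1f/f or Pkd2f/f animals that carried HoxB7-Cre, WT mice were age-matched Pkd1f/f or Pkd2f/f littermates with no Cre, and both were taken at P1, P3 and P7, where P is the postnatal day. All mice thus carried the floxed alleles, and only KO mice carried the transgene, so that Cre and deletion cannot be told apart. HoxB7 drives Cre in the collecting duct, whereas whole kidneys were sequenced. In bulk tissue, fewer cells of a type and less RNA per cell cannot be told apart.

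Between 7179152 and 15850818 reads were counted per library, and the lowest total was that of Pkd1 WT replicate 2 at P1. Levels below are normalized counts, that is counts scaled by edgeR's TMM factors over all 36 libraries to a common library size. Markers of kidney were present in every library, with 5310 to 38108 raw counts of Slc34a1, the phosphate transporter of the proximal tubule, 514 to 3495 of the podocyte gene Nphs1 and 461 to 10027 of the collecting duct water channel Aqp2. Umod, the uromodulin gene of the thick ascending limb, was at 0 or 1 raw counts in every library. It has 2 rows in the count table, where Slc34a1, Nphs1 and Aqp2 have 1. Whether its low counts come from reads shared by the 2 rows was not tested. The Pkd1 transcript did not differ between Pkd1 KO and WT kidneys (adjusted p from 0.556 to 1 in edgeR's quasi-likelihood test), and the Pkd2 transcript was lower in Pkd2 KO at P7 alone (log2 fold change -0.29, SE 0.05, adjusted p = 0.0115). The deleted genes therefore gave little check of the KO and WT labels.

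Some libraries stood apart. Markers of the adrenal cortex summed to 22445 normalized counts in Pkd1 KO replicate 1 at P7, to 68937 in Pkd2 WT replicate 2 at P3 and to 19355 in Pkd2 KO replicate 3 at P7, against 397 to 890.2 in the other 33 libraries. Markers of urothelium, the lining of the renal pelvis, ranged from 295 to 12164 with a median of 1608, and varied within groups. Y-linked transcripts were counted in 18 of the 36 libraries, and no comparison of KO with WT held both kinds of library in both groups. In Pkd1 at P7 all 3 KO and none of the 3 WT libraries held them, so that there sex and genotype cannot be told apart.

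Positions and exons of the 6 genes are those of the GENCODE transcripts matched to the counted RefSeq transcripts. Aldh1a1 (NM_013467) lies on the plus strand of chromosome 19 at 20601961 to 20643462 of mm10 with 13 exons. Plet1 (NM_029639) lies on the plus strand of chromosome 9 at 50494525 to 50505482 with 4 exons. Krt80 (NM_028770) lies on the minus strand of chromosome 15 at 101348315 to 101370162 with 9 exons, and Mal2 (NM_178920) on the plus strand of the same chromosome at 54571192 to 54602847 with 4 exons. Prss22 (NM_133731) lies on the minus strand of chromosome 17 at 23993534 to 23998100 with 6 exons, and Nrip3 (NM_020610) on the minus strand of chromosome 7 at 109758059 to 109781545 with 7 exons. Each gene has 1 row in the count table. Exons of Plet1 overlap the antisense gene Plet1os and exons of Krt80 the antisense gene Gm35853, and although HTSeq counts by strand with its default options, whether the library kit marked strand is not given in the sources used here, so that reads of the partners may be mixed.

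Upstream sequence in RefSeq (GRCm38.p6, the assembly of mm10) was at hand for 2 of the 6 genes. The 250 bases before the start sites of Plet1 and Aldh1a1 are therefore the ones shown. RefSeq's start site for Aldh1a1 lies a few bases inside the GENCODE transcript matched to the counted one. They cover chr9:50494275-50494524 and chr19:20601718-20601967, both on the plus strand, and capitals mark matches to any of 6 short motifs searched on both strands.
Plet1: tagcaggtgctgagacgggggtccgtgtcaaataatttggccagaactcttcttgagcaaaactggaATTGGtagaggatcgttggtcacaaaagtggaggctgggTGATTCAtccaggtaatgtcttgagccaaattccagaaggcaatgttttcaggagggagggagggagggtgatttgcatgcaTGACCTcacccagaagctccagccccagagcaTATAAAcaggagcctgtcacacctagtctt
Aldh1a1: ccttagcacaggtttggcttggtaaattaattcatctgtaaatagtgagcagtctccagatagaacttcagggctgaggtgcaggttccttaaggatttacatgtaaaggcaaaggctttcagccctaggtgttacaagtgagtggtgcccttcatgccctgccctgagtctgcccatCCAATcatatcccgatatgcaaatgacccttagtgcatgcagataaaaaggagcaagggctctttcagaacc

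The Plet1 window held a TATA box (TATAAA) whose first base was at -30 from the start site, as 12.4% of 32851 windows of the same length hold at any position. It also held an inverted CCAAT box at -183, an inverted nuclear receptor hexamer (AGGTCA) at -62 and an AP-1 site (TGANTCA) at -144, which 33.9%, 14.0% and 6.75% of all windows hold. The Aldh1a1 window held 1 CCAAT box, at -72. Neither printed window held the grainyhead site (AACNGGTT, in 1.79% of windows) or the TEAD site (GGAATG, in 12.6%). A window before another RefSeq start of Aldh1a1, at chr19:20492333-20492582 and upstream of the counted transcript, held an AP-1 site at -57 and a TEAD site at -168. These matches are letters only.

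At each age the median of the 6 log2 fold changes, KO minus WT, was taken from edgeR's fit. In the Pkd2 model it was 1.10 at P1, 1.86 at P3 and 1.39 at P7. In the Pkd1 model it was -0.78 at P1, 0.81 at P3 and 1.41 at P7. The value at P1 ran from -1.19 to -0.34 with a library left out, nearest to 0 without WT replicate 1. The median of all transcripts tested lay between -0.0091 and 0.0017 in the 6 comparisons.

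Every KO library lay above every WT library for 4 of the 6 genes in Pkd2 at P1, where 5.66% of all transcripts did so, for 6 at P3 (4.95%) and for 4 at P7 (18.1%). In Pkd1 this held for 0 genes at P1 (3.03%), 4 at P3 (10%) and 4 at P7 (19.2%). The genes were selected on these contrasts, so that nothing is read from these shares. Without Pkd1 WT replicate 2 at P7 or without Pkd2 WT replicate 3 at P7, all 6 genes separated in that comparison. Each was the highest WT library of its group for all 6 genes. The share of all transcripts that separate without it was not taken, so nothing is read from this either. Leaving out a library can only keep or raise the count of separated genes. Counts without the adrenal-marker libraries are therefore no check on their part.

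**Figure D1:**
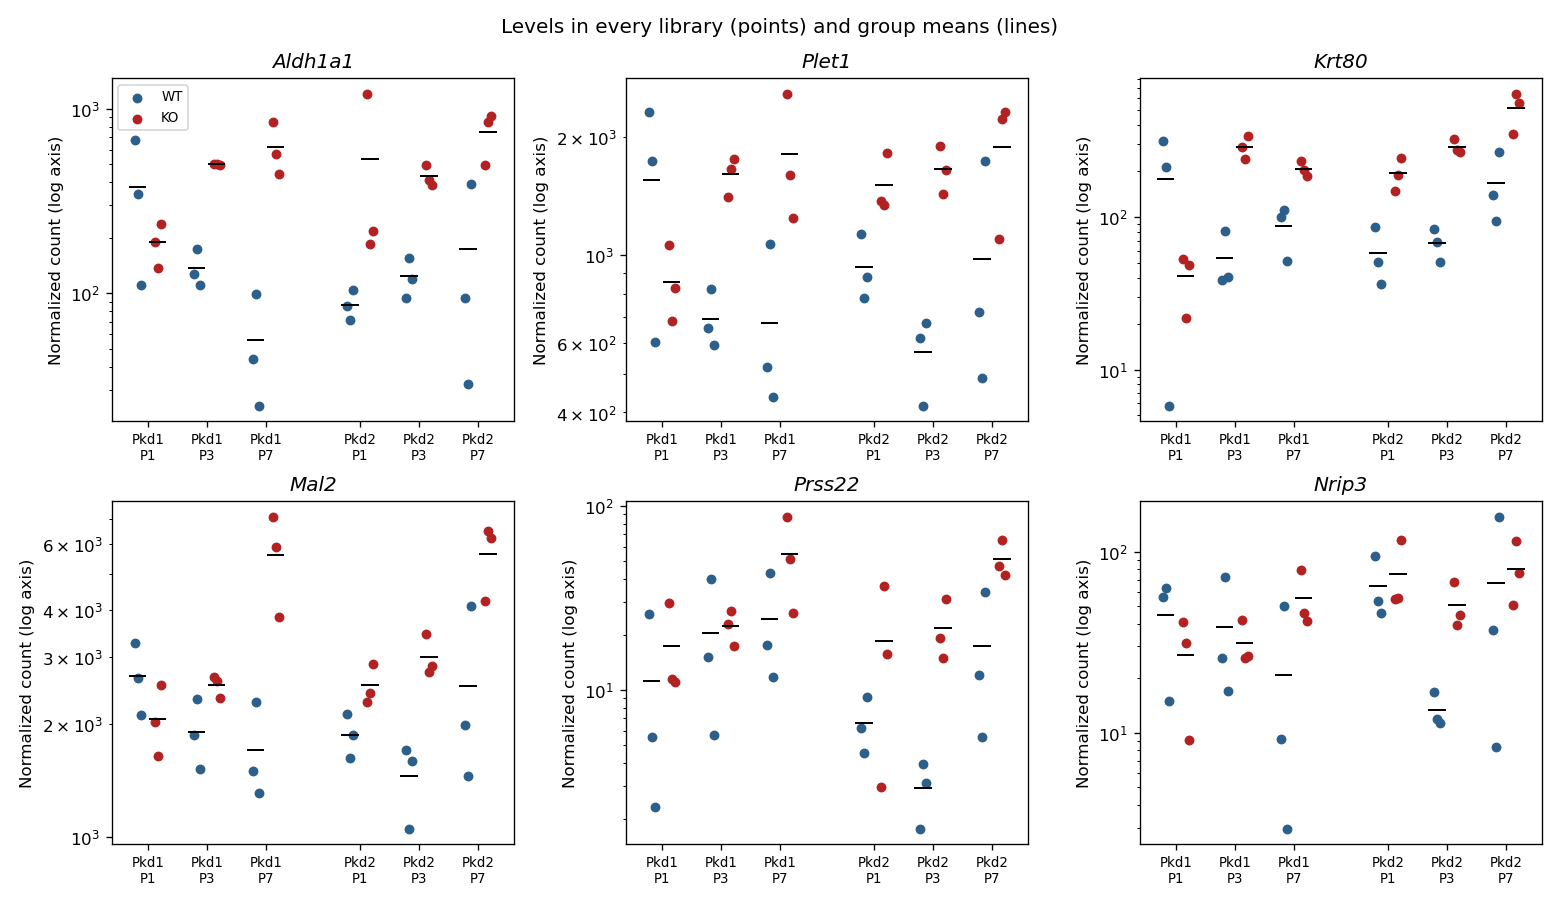
Normalized counts (log axis) of the 6 genes in each of the 36 libraries, by model and age, with KO in red, WT in blue and lines at group means of 3 libraries. At P1 the KO points lie above the WT points in Pkd2 for Aldh1a1, Plet1, Krt80 and Mal2, while in Pkd1 WT replicates 1 and 2 lie above all KO libraries for these genes.

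Aldh1a1, the retinal dehydrogenase, had the largest change of the 6 genes at P7. In Pkd1 at P7 the KO libraries held 843, 572 and 443 normalized counts and the WT libraries 44.3, 99.1 and 24.6. In Pkd1 at P3 the KO libraries held 499.7, 505 and 498 and the WT libraries 128, 173 and 111. The groups did not overlap at either age, and the KO libraries at P3 differed by an SD of only 3.61. The log2 fold changes were 1.87 (SE 0.16) at P3 and 3.46 (SE 0.48) at P7. At P1 the order was turned, with 191, 138 and 238 in KO against 681, 344 and 111 in WT (log2 fold change -1.0, SE 0.54). WT replicates 1 and 2 were above all KO libraries there and WT replicate 3 below them. Without WT replicate 1 the difference was -0.25.

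In the Pkd2 model Aldh1a1 was higher in every KO library at all 3 ages. At P1 the KO libraries held 1202, 186 and 218 and the WT libraries 85.0, 71.4 and 104. KO replicate 1 alone was the highest of all 36 libraries, and without it the log2 fold change fell from 2.62 to 1.22. At P3 the values were 495, 414 and 386 against 94.2, 156 and 120.1, with a log2 fold change of 1.8 (SE 0.21). At P7 they were 497, 844 and 910.2 against 94.3, 32.5 and 392, with a log2 fold change of 2.14 (SE 0.70). WT replicate 3 at P7 stood above the other 2 WT libraries, and without it the log2 fold change was 3.59. The adrenal-marker libraries were the highest KO libraries for Aldh1a1 at P7 in both models and the highest WT library at P3 in Pkd2. Their part in the level was not tested, and without them the log2 fold changes were 3.16 in Pkd1 at P7, 1.98 in Pkd2 at P7 and 2.02 in Pkd2 at P3.

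Plet1, the GPI-anchored surface protein, was one of the 2 most abundant of the 6. In Pkd1 the KO libraries held 1406, 1657 and 1757 normalized counts at P3 against 653, 821 and 592 in WT. At P7 they held 2564, 1597 and 1247 against 523, 1069 and 437. No WT library reached a KO library at either age, and the log2 fold changes were 1.22 (SE 0.13) and 1.42 (SE 0.37). At P1 the KO libraries held 1063, 682 and 829 against 2312, 1734 and 604 in WT, where WT replicates 1 and 2 lay within the range of KO kidneys at P3 and P7 (log2 fold change -0.85, SE 0.41).

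In Pkd2 the Plet1 values were 1371, 1341 and 1822 in KO against 1135, 779 and 883 in WT at P1. At P3 they were 1897, 1434 and 1647 against 618, 416 and 676. The groups stayed apart at both ages, by log2 fold changes of 0.70 (SE 0.16) and 1.54 (SE 0.19). At P7 the KO libraries held 1102, 2221 and 2315 and the WT libraries 720.1, 490.1 and 1731, and the groups overlapped, since KO replicate 1 lay below WT replicate 3 (log2 fold change 0.95, SE 0.46). Without WT replicate 3 it was 1.65.

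Krt80, the type II keratin, showed the widest swing in Pkd1. At P1 the KO libraries held 53.0, 21.9 and 48.5 normalized counts and the WT libraries 317, 212 and 5.78, a log2 fold change of -2.11 (SE 0.97). At P3 the KO libraries held 289, 239 and 341 and the WT libraries 38.9, 81.5 and 40.7, a log2 fold change of 2.42 (SE 0.29). The KO means were thus 41.1 at P1 and 289.6 at P3, while WT replicate 1 at P1 lay within the range of the KO libraries at P3. At P7 the values were 233, 204 and 185 against 99.7, 111 and 51.2 (1.25, SE 0.30).

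In Pkd2 the Krt80 groups were apart at every age. The KO libraries held 149, 189.9 and 244 at P1 against 86.1, 50.6 and 36.6 in WT, and 323, 274 and 268 at P3 against 83.6, 68.7 and 50.7. At P7 they held 349, 641 and 556 against 139, 93.8 and 265. The log2 fold changes were 1.75 (SE 0.32), 2.09 (SE 0.22) and 1.65 (SE 0.37). From P1 to P7 the KO mean went from 194 to 515 (SD 47.8 and 150.3) and the WT mean from 57.8 to 166 (SD 25.5 and 88.9).

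Mal2, which serves apical transport, had the highest level per length of the 6 genes in 9 of the 12 groups and Plet1 in the other 3. Its group means ran from 491 normalized counts per kb of transcript in Pkd2 WT at P3 to 1914 in Pkd2 KO at P7. In Pkd1 its KO libraries held 2655, 2589 and 2334 at P3 against 1862, 2328 and 1513 in WT, and at P7 7069, 5868 and 3829 against 1499, 2278 and 1312. The lowest KO library at P3 lay only just above the highest WT library, and the log2 fold change went from 0.41 (SE 0.14) to 1.72 (SE 0.27). At P1 the values were 2016, 1639 and 2524 against 3267, 2645 and 2111 (log2 fold change -0.38, SE 0.19).

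In Pkd2 the log2 fold changes of Mal2 were 0.44 (SE 0.12) at P1, 1.06 (SE 0.18) at P3 and 1.18 (SE 0.35) at P7. The KO libraries at P7 held 4239, 6495 and 6202 and the WT libraries 1979, 1455 and 4111. The KO values lay above the WT values at all 3 ages, at P7 by a narrow margin over WT replicate 3.

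**Figure D2:**
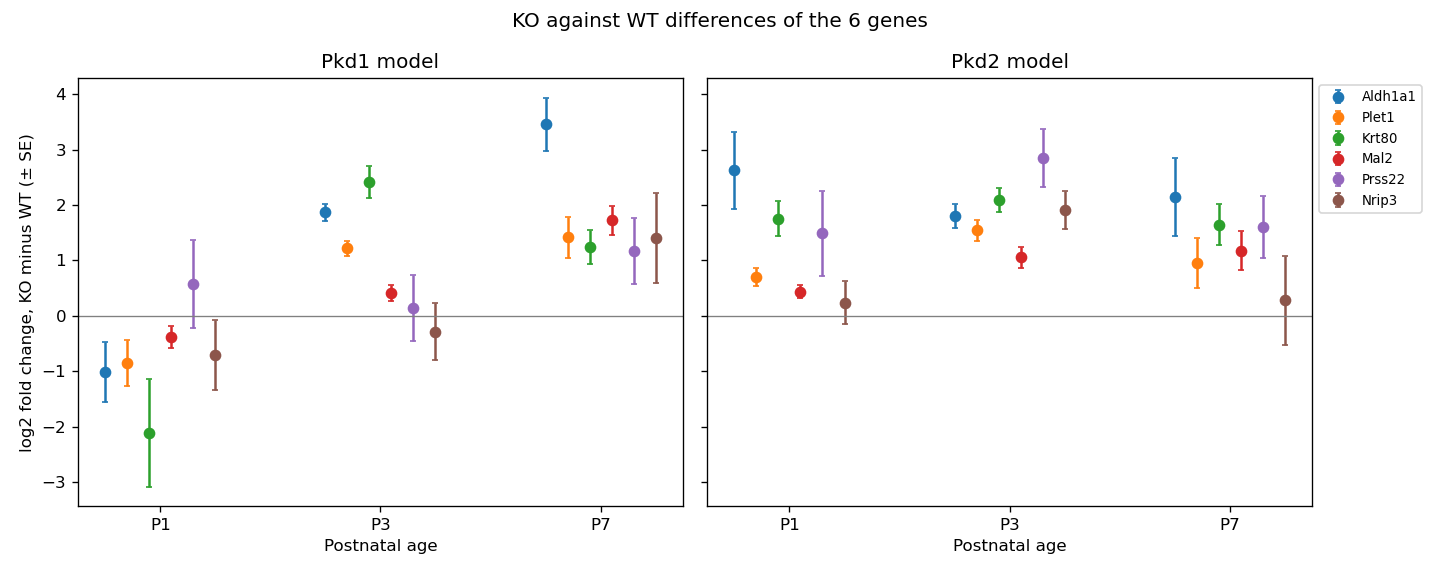
Log2 fold changes, KO minus WT, of the 6 genes at P1, P3 and P7 in each model, with bars for 1 SE from edgeR's fit (n = 3 libraries per group). In Pkd1 the points run from -2.11 to 0.58 at P1 and from 1.17 to 3.46 at P7, whereas all Pkd2 points lie above 0.

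Prss22, the tryptase-family protease, was scarce, with 2 to 83 raw counts per library. In Pkd2 the KO libraries held 19.2, 14.9 and 31.1 normalized counts at P3 against 1.76, 3.98 and 3.11 in WT, and 47.1, 65.1 and 42.1 at P7 against 12, 5.57 and 34.1. KO was above WT in all libraries at both ages, and the log2 fold changes were 2.85 (SE 0.52) and 1.60 (SE 0.55). At P1 the KO libraries held 2.95, 36.8 and 15.7 against 6.22, 4.52 and 9.15 in WT, so that KO replicate 1 fell below all WT libraries. In Pkd1 KO and WT overlapped at every age, and the log2 fold changes were 0.58 (SE 0.80) at P1, 0.14 (SE 0.60) at P3 and 1.17 (SE 0.59) at P7. Both values at P1 and P3 changed sign with a library left out, to -0.04 at P1 without KO replicate 1 and to -0.32 at P3 without WT replicate 3.

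Nrip3 held 3 to 146 raw counts per library and separated KO from WT in 1 of the 6 comparisons only. In Pkd2 at P3 the KO libraries held 67.7, 39.2 and 44.7 normalized counts and the WT libraries 16.7, 11.9 and 11.4, a log2 fold change of 1.91 (SE 0.34). In Pkd2 the differences at P1 and P7 were 0.24 (SE 0.38) and 0.28 (SE 0.80), less than their errors. In Pkd1 they were -0.70 (SE 0.64), -0.29 (SE 0.51) and 1.40 (SE 0.81) at P1, P3 and P7. The highest Nrip3 value of all, 156, was in a WT library, Pkd2 WT replicate 3 at P7, while the other 2 WT libraries of that group held 37.1 and 8.35.

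The low per-length levels of these 2 genes set them apart from the rest. Per kb of transcript the highest group means were 1914 for Mal2, 1113 for Plet1, 366 for Aldh1a1, 168 for Krt80, 41.4 for Prss22 and 20.6 for Nrip3. These maxima were in Pkd2 KO at P7, except that of Prss22, which was in Pkd1 KO at P7.

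Within groups, the library highest for each of the 6 genes was set beside the one highest for summed cell type markers. Over the 6 WT groups and 6 genes, the library with the highest value of a gene was also the highest for summed urothelium markers in 28 of 36 cases and for summed collecting duct markers in 30 of 36. In KO groups the numbers were 18 and 25 of 36. For Plet1 it was the library with the most urothelium markers in all 6 WT groups, and for Prss22 in all 6 KO groups. With collecting duct markers the match was complete for Krt80 in all 6 WT and all 6 KO groups and for Mal2 in all 6 WT groups. With adrenal markers it was complete for Aldh1a1 in all 6 KO groups. The same count for adrenal, leukocyte, proximal tubule and general kidney markers in WT groups was 4, 15, 8 and 6 of 36, and in KO groups 18, 16, 10 and 8 of 36. With 3 libraries per group some matches arise by chance, and the share over all transcripts was not taken. Outside 3 libraries the adrenal sums lay between 397 and 890. Nothing is therefore read from these counts.

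Pkd2 WT replicate 3 at P7 had 6551 summed urothelium counts against 1582 and 459 in the other WT libraries of its group, and Pkd1 WT replicate 2 at P7 had 1635 against 295 and 339.7. Both were the highest WT libraries of their groups for all 6 genes. In Pkd1 at P1 the urothelium sums were 5932, 1872 and 925 in WT and 5986, 1031 and 352 in KO. KO replicate 1 and WT replicate 1, with the highest sums of their groups, held 53.0 and 317 normalized counts of Krt80. Collecting duct markers there summed to 58602 and 57233 in WT replicates 1 and 2, 43130 in WT replicate 3 and between 39688 and 50791 in KO.

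In the Pkd2 model the median of the urothelium list lay above 0 at P1 and P3 and below 0 at P7. Over 10 tested markers its median log2 fold change in Pkd2 was 1.38 at P1, 1.86 at P3 and -1.47 at P7, with 0 of them past edgeR's test and 4, 3 and 1 at an unadjusted p under 0.05. The sums were 2196 to 12164 in KO against 1393 to 3469 in WT at P1, and 1070.3 to 6699 against 352 to 1908 at P3. At P7 they were 575 to 1709 in KO against 459 to 6551 in WT, the 6551 being that of WT replicate 3. The means of all 6 genes were higher in KO there, with overlap of KO and WT for Plet1 and Nrip3.

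In Pkd1 at P7 the urothelium sums were 2308, 859 and 717 in the KO libraries and 295, 1635 and 340 in the WT libraries. Aldh1a1 had 843, 572 and 443 normalized counts in these KO libraries and 44.3, 99.1 and 24.6 in these WT libraries. With the log2 urothelium sum as a covariate, an alternative chosen after seeing the data, the median log2 fold changes were -0.49, 0.72 and 1.00 in Pkd1 and 0.50, 1.76 and 1.79 in Pkd2 at P1, P3 and P7. The value for Prss22 in Pkd2 at P1 went from 1.49 to -0.13 and that in Pkd1 at P3 from 0.14 to -0.15. The part of the urothelium in the spread within groups was not tested.

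**Figure D3:**
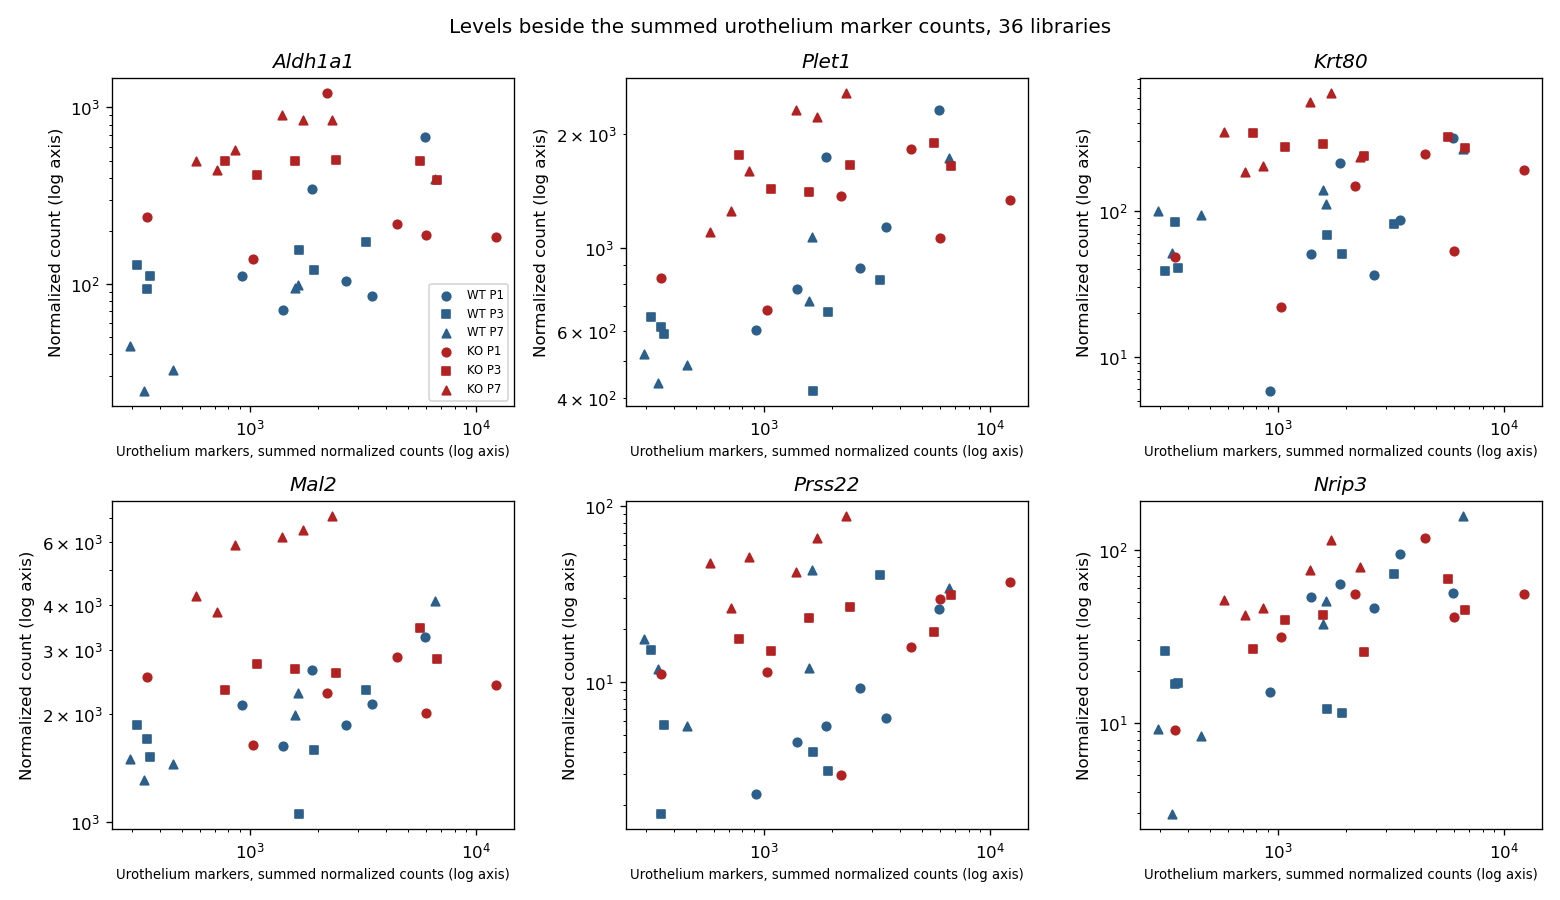
Normalized counts of the 6 genes (vertical, log axis) against the summed normalized counts of the urothelium markers (horizontal, log axis) in the 36 libraries, with KO in red, WT in blue and a marker shape for each age. The urothelium sums run from 295 to 12164, and their part in the levels was not tested.

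Tests were kept to measures that did not choose the genes, namely whether the 6 genes changed with age in WT kidneys and whether they differed with Y-linked counts among WT kidneys. In Pkd1 WT, Aldh1a1 fell between P1 and P7 (log2 change -2.76, SE 0.63, adjusted p = 0.0143 in edgeR's test, from 379 to 56.0 normalized counts). In Pkd2 WT, Krt80 rose (log2 change 1.5, SE 0.43, adjusted p = 0.0408, from 57.8 to 166). Age and sex were not balanced in these contrasts. Y-linked counts were held by 2 of 3 Pkd1 WT libraries at P1 and 0 of 3 at P7. In Pkd2 WT they were held by 1 of 3 at P1 and 2 of 3 at P7. Over all transcripts 8.92% were called higher and 9.03% lower at P7 in Pkd1 WT, and 7.95% and 11.3% in Pkd2 WT. The WT groups also entered the KO against WT differences, so the 2 kinds of value are not independent.

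The call of Aldh1a1 in Pkd1 WT was lost in 3 of the alternatives, while the change stayed negative. It was -2.01 without WT replicate 1 at P1 (adjusted p = 0.0509), -2.62 without WT replicate 1 at P7 (0.058) and -2.61 with Y-linked counts as a covariate (0.132). The call of Krt80 in Pkd2 WT was lost without WT replicate 2 or 3 at P1 (adjusted p = 0.131 and 0.144) or WT replicate 1 or 3 at P7 (0.0734 and 0.131) and with a replicate block (0.0673), with log2 changes from 0.97 to 1.62 in these fits. In Pkd2 WT the same contrast gave Aldh1a1 a log2 change of 0.98 (SE 0.71, adjusted p = 0.372), opposite in sign to that in Pkd1. The difference between the models was not tested.

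Between P1 and P3, 0 of the 6 genes passed in either model by edgeR's test, and 0 by DESeq2. At an unadjusted p under 0.05 there were 2 in Pkd1, Aldh1a1 and Plet1, and 1 in Pkd2, Nrip3. Few transcripts of any kind passed, with 0.112% higher and 0.00798% lower in Pkd1 WT and 0% and 0.00792% in Pkd2 WT. Nrip3 in Pkd2 WT had 64.5 normalized counts at P1, 13.3 at P3 and 67.0 at P7.

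Y-linked counts were held by 9 of the 18 WT libraries. With model and age in the fit, 0 of the 6 genes differed between them by edgeR's test or by DESeq2, and 0 had an unadjusted p under 0.05, while 0.0486% of all transcripts were called. All 6 estimates were negative, from -0.31 (SE 0.23) for Mal2 to -0.98 (SE 0.65) for Nrip3, and differences of this size were not detectable at this spread. Where WT kidneys of the same kind as the KO kidneys were used alone, the median log2 fold change was -0.93 in Pkd1 at P1, with 1 WT library left. In Pkd2 it was 0.93, 1.87 and 2.0 at P1, P3 and P7, each with 1 WT library left out. At P7 that was WT replicate 3, the highest WT library there for all 6 genes. Sex and the other traits of that library cannot be told apart in this fit.

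The genes whose 6 differences lay nearest to the median profile of the set were sought among 9725 other transcripts with a mean of at least 50 normalized counts, by the root mean square distance of the log2 fold changes. Among the nearest were Cd14 (0.39), the co-receptor for bacterial lipopolysaccharide, and Efemp1 (0.39), an extracellular matrix fibulin. Also near were Rasgrf2 (0.40), a guanine nucleotide exchange factor, the complement component C3 (0.44) and Styk1 (0.44), a kinase-like membrane protein. The values of C3 were widely spread, with 106, 150 and 4447 normalized counts in Pkd2 KO at P3 and 45.8, 1810 and 215 in WT. The WT library at 1810 was the one with adrenal markers. Among the 6 genes themselves the distance was 0.32 for Plet1, 0.51 for Mal2, 0.73 for Nrip3, 0.77 for Prss22, 0.91 for Krt80 and 1.17 for Aldh1a1. The likeness was set over 6 comparisons that take in the same WT libraries.

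Efemp1 was chosen because its differences lay near the median profile of the set, those in Pkd1 at P1 and P7 included. Its lower KO mean at P1 and higher KO mean at P7 in Pkd1 therefore follow from that choice and are only described. At P1 in Pkd1 Efemp1 had 329, 272 and 362 normalized counts in KO and 992, 641 and 247 in WT. As for Plet1, WT replicates 1 and 2 were above all KO libraries and WT replicate 3 was below. At P7 its KO libraries held 2167, 1548 and 1256 against 613, 790.2 and 571 in WT.

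The biochemical relatives of the 6 genes were then tested at P7, where 6.32% of all transcripts were called higher and 7.14% lower in Pkd1 KO and 7.88% and 6.17% in Pkd2 KO (edgeR's quasi-likelihood test, adjusted p under 0.05). Over 6 lists without the 6 genes, 9 of 80 tested genes rose and 6 fell in Pkd1, and 8 of 81 rose and 6 fell in Pkd2. The median log2 fold changes over these lists were -0.01 and -0.03. The lists were written with earlier results of these data known. Without the adrenal-marker library 12 passed in each model, 8 of them higher. DESeq2 called 30 and 20.

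Of 19 tested genes that make, carry, sense or break down retinoic acid, 3 rose and 0 fell in Pkd1 and 1 rose and 2 fell in Pkd2. Adh7, a retinol dehydrogenase that acts 1 step before Aldh1a1, had the largest rise. Its KO libraries held 227, 225 and 166 normalized counts in Pkd1 against 12.9, 9.01 and 8.86 in WT, and 358, 628 and 865 in Pkd2 against 23.1, 7.43 and 54.3. The log2 fold changes were 4.31 (SE 0.29, adjusted p = 0.000583) and 4.48 (SE 0.56, adjusted p = 0.00284). Adh1, which also oxidizes retinol, rose in Pkd1 (1.64, SE 0.43, adjusted p = 0.0423), where the adrenal-marker KO library held 13399 normalized counts and the other 2 KO libraries 5005 and 3744. Without that library its log2 fold change was 0.88 (adjusted p = 0.0491). Aldh8a1, another aldehyde dehydrogenase, fell in Pkd2 (-1.24, SE 0.24, adjusted p = 0.0149).

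Of 6 tested type II keratins 2 rose in each model, and the list's median log2 fold change was 1.65 in Pkd1 and 0.63 in Pkd2. These were the simple-epithelium keratins Krt7 (1.17, SE 0.19, adjusted p = 0.0123 in Pkd1 and 0.85, SE 0.15, adjusted p = 0.0103 in Pkd2) and Krt8 (1.07, SE 0.16, adjusted p = 0.00974 and 0.71, SE 0.11, adjusted p = 0.006). The Krt8 libraries held 11880.2, 9130 and 8262 normalized counts in Pkd1 KO against 4442, 4388 and 5136 in WT, with no overlap. The other 4 tested keratins did not pass in either model.

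Among 15 tested MARVEL and tetraspan proteins, the family of Mal2, Plp2 rose in both models (0.97, SE 0.13, adjusted p = 0.00703 in Pkd1 and 0.58, SE 0.06, adjusted p = 0.00152 in Pkd2). Syngr1 and Cmtm6 fell in Pkd1 (-1.31 and -0.52), and 0 genes of this list fell in Pkd2 by edgeR's test, where 4 had an unadjusted p under 0.05 in either direction and DESeq2 called 1 in all. Cmtm6 did not pass without the adrenal-marker library (adjusted p = 0.119).

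Of the membrane-linked serine proteases and protease inhibitors, 2 of 21 tested rose and 2 fell in Pkd1, and 4 of 22 rose and 4 fell in Pkd2. Tmprss2, a transmembrane serine protease, fell in Pkd1 (-0.75, SE 0.11, adjusted p = 0.0108), and Klk1, tissue kallikrein, fell in Pkd2 (-0.87, SE 0.07, adjusted p = 0.000458). Tmprss2 fell in Pkd2 as well (-0.35, SE 0.09, adjusted p = 0.0334), but did not pass there without the adrenal-marker library (adjusted p = 0.103). Prss23, another serine protease, rose in both models (0.72, SE 0.14, adjusted p = 0.0179 in Pkd1 and 0.71, SE 0.08, adjusted p = 0.002 in Pkd2).

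Of 15 tested GPI-anchored surface proteins, the class of Plet1, only mesothelin (Msln) passed, in Pkd1 (3.87, SE 0.44, adjusted p = 0.00527), with 1934, 1033 and 958 normalized counts in KO against 44.3, 83.8 and 143 in WT. In Pkd2, 0 of the 15 passed edgeR's test, 4 had an unadjusted p under 0.05 and DESeq2 called 2. Among the relatives of Nrip3, Nrip1 and Ddi2 fell in Pkd1 (-2.39, adjusted p = 0.0234 and -1.03, adjusted p = 0.0383) and neither passed without the adrenal-marker library (0.0697 and 0.105). In Pkd2, 0 of these 4 passed by edgeR or DESeq2 and 1 had an unadjusted p under 0.05.

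**Figure D4:**
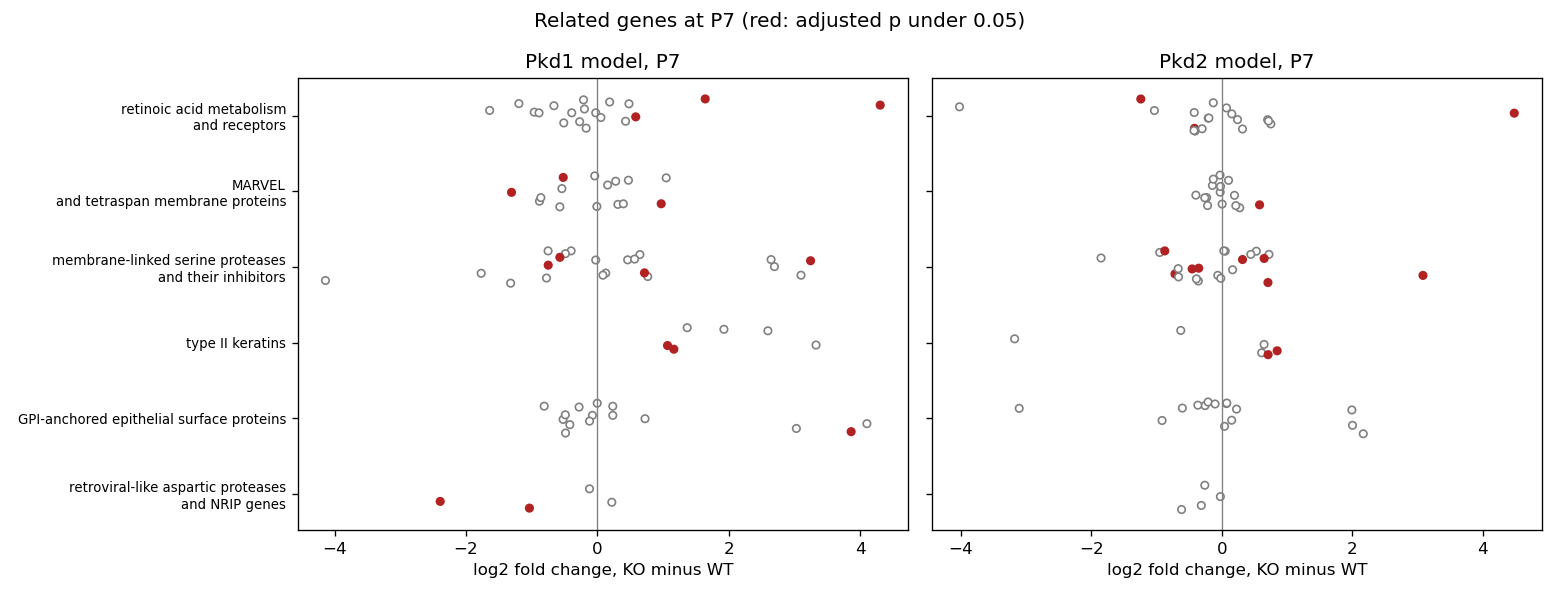
Log2 fold changes, KO minus WT at P7, of the tested genes of 6 lists related to the 6 genes, which are themselves left out, with filled points for an adjusted p under 0.05 in edgeR's test. The 2 points farthest to the right among filled ones are Adh7, at 4.31 in Pkd1 and 4.48 in Pkd2.

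Cell type markers moved at P7 as well. Of 21 tested collecting duct genes, 8 rose and 7 fell in Pkd1, and 5 rose and 7 fell in Pkd2. Among those that rose in both were Krt18, Krt7, Krt8 and Scnn1a, and those that fell in both were Aqp2, Aqp3, Slc4a1, Slc26a4, Foxi1 and Atp6v1b1, the last 4 being genes of intercalated cells. Of 10 tested proximal tubule genes 0 rose and 8 fell in Pkd1 and 9 fell in Pkd2. Of 11 tested leukocyte genes 4 rose in Pkd1 and 8 in Pkd2, and 0 fell. Of 8 tested general kidney markers 3 fell in each model. These were Aqp2, Lrp2 and Slc12a1 in Pkd1 and Aqp2, Slc34a1 and Lrp2 in Pkd2. All but Slc12a1 are also in the collecting duct or proximal tubule list, so they are not a further set. Without the adrenal-marker library, 3 of the 8 proximal tubule calls passed in Pkd1 and 7 of the 9 in Pkd2, and 11 of the 15 collecting duct calls in Pkd1 and 8 of the 12 in Pkd2. Scnn1a did not pass in Pkd1, nor Krt18, Aqp2 and Foxi1 in Pkd2. Of the leukocyte calls 3 of 4 and 5 of 8 passed, and of the general kidney calls 2 of 3 in each model. The leukocyte sums of the P7 KO kidneys ran from 6731 to 8837 against 3972 to 5248 in WT.

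Of the 10 tested urothelium markers 1, Upk3b, rose in Pkd1 (log2 fold change 1.73, SE 0.44, adjusted p = 0.0394; without the adrenal-marker library adjusted p = 0.114) and 0 passed in Pkd2 by edgeR, with 1 at an unadjusted p under 0.05. Of the adrenal markers 0 of 4 passed in Pkd1 and 0 of 7 in Pkd2, where 3 and 6 had an unadjusted p under 0.05. The part of these cell types in the levels of the 6 genes was not tested beyond the covariate fit above.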

How the data were processed

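RNA of whole kidneys was read on a HiSeq2000, and the authors called bases with CASAVA 1.8.2, aligned reads to mm10 with TopHat 2.1.0 and counted them per RefSeq transcript with HTSeq at its default options, which count by strand (its version, and whether the kit marked strand, are not given in the sources used here). The table was deposited as raw counts of 29996 transcripts in 36 libraries, with no filter or scaling. Where a gene has several rows, that with the highest mean count was used. Multi-mapped reads may be lost from genes with near-identical copies.

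Each model and age was fitted apart in R 4.3.3 with edgeR 4.0.16 (TMM factors, quasi-likelihood F test, Benjamini-Hochberg adjustment over all transcripts, threshold 0.05), with transcripts kept at 10 or more counts in 3 or more of the 18 libraries of a model (12527 in Pkd1, 12633 in Pkd2). WT ages and Y-linked counts were tested in WT libraries only. SE is the absolute log2 fold change over the square root of F. DESeq2 1.42.0, other scaling, no filter, a replicate block, 1 fit per model, and leaving out each library were alternatives. Scripts were tested on simulated data. The libraries are taken as separate animals from their labels, and p-values measure the spread between them.

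The 6 genes and all lists were chosen with earlier results of these data known. Named list genes were those past the threshold with the largest changes, at most 2 per list and model. Some genes that this rule names are not reported here. Cmtm6, Prss23, Upk3b and the collecting duct genes were named after their values were seen. Replicate numbers are shared by KO and WT labels. Same-numbered libraries deviated together in every pair (correlations 0.33, 0.18 and 0.49) in Pkd1 at P1 alone, and the block moved that median log2 fold change from -0.78 to -0.72. Figures were drawn with matplotlib 3.10.9.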

Additional observations from a re-analysis of the deposited data

Results flagged for a closer look

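In Pkd1 at P1 all 3 KO libraries lay below the WT mean for several of the 6 genes, and in the comparison set beside it all 3 KO libraries lay above theirs. These differences between comparisons were not tested. For Aldh1a1 the log2 fold change in Pkd2 at P1 was higher than that in Pkd1 at P1 by 3.63, and within Pkd1 it was higher at P3 than at P1 by 2.87 and at P7 than at P1 by 4.46. For Plet1 the same 3 differences were 1.55, 2.07 and 2.27. For Krt80 they were 3.87, 4.53 and 3.36, and for Mal2 0.81, 0.79 and 2.1. For Nrip3 only the difference between P7 and P1 in Pkd1 met this condition, at 2.11. The Pkd1 WT libraries at P1 were themselves spread, with replicates 1 and 2 high and replicate 3 low for Aldh1a1, Plet1, Krt80 and Nrip3, and the differences that take in Pkd1 at P1 share these libraries.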

How the results depend on the processing

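The median log2 fold change of the 6 genes kept its sign in every comparison under all 36 fits with a library left out and all 50 other settings. These settings take in, for each comparison, the sum of all rows of a gene. That setting repeats the main fit, since each gene has 1 row, and could not differ from it. Single genes changed sign in 9 of 216 fits with a library left out and 2 of 264 other fits, all of Prss22 or Nrip3. With a library left out the median ranged from -1.19 to -0.34 in Pkd1 at P1 (nearest to 0 without WT replicate 1), from 0.69 to 1.24 in Pkd1 at P3 (highest without WT replicate 2) and from 0.66 to 1.16 in Pkd2 at P1 (lowest without KO replicate 2), and it was 0.50 in Pkd2 at P1 with the urothelium covariate, chosen after seeing the data. Of the related genes at P7 in Pkd1, 15 passed, against 30 with DESeq2, 33 in 1 fit per model, 9 with a 2-fold limit and 5 to 30 with a library left out (fewest without WT replicate 1, most without WT replicate 3, and 8 without KO replicate 2). In Pkd2 14 passed, against 3 with a 2-fold limit, 27 with the urothelium covariate and 7 to 21 with a library left out (fewest without WT replicate 1, most without WT replicate 3). The replicate block gave 11 and 17.

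Between P1 and P7 in Pkd1 WT 1 of the 6 genes passed, against 2 with DESeq2, 3 with the replicate block, 2 in 1 fit per model, 0 with Y-linked counts as a covariate and 0 to 4 with a library left out (most without WT replicate 2 at P7). In Pkd2 WT 1 passed, against 0 with the replicate block and 0 to 1 with a library left out. Same-numbered WT libraries of different ages did not all deviate together. WT changes that turned direction were those of Nrip3 in Pkd1 at P3 (0.12 with the Y covariate, -1.05 to 0.16 with a library left out), Prss22 in Pkd1 at P3 (-0.17 to 2.44), and in Pkd2 at P7 Plet1 (-0.12 with the block, -0.66 to 0.39), Nrip3 (-0.45 with the block, -1.55 to 0.57), Aldh1a1 (-0.49 to 1.48) and Mal2 (-0.16 to 0.70). The Y-linked difference of Mal2 ranged from -0.55 to 0.043. The cause was not tested. A Y covariate for KO against WT could be fitted only in Pkd1 at P1 and in Pkd2 at P1, P3 and P7. In these comparisons only the WT group held both kinds of library, so the covariate was estimated from WT alone. Low counts of Prss22 and Nrip3 limit what these libraries can show.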
